A study of Homo sapiens with 2 samples.

Results

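The long arm of chromosome 1 (1q) carried 230 of the 24258 peaks of TRF2 over input in HCT116 cells. TRF2, the product of TERF2, belongs to shelterin, the complex that caps chromosome ends, where it sits on the duplex telomere repeats. It is also known to bind repeat tracts inside chromosomes. The members are all peaks of the authors' list on chromosome 1 whose summit, the position of the highest read pileup, lay beyond 143200000 on the assembly hg38, where the variable heterochromatin band q12 ends and band q21.1 begins. The members were chosen by their summit positions, and the arm was selected on the density and strength of its peaks in an earlier reading of the same list, so those values are descriptions here. HCT116 is a colorectal carcinoma cell line. There was 1 library of TRF2 immunoprecipitate and 1 of its input (sonicated chromatin without immunoprecipitation), from cells fixed with 1% formaldehyde 72 h after plating. The immunoprecipitation took 5 μg of antibody to 100 μg of chromatin. The labels mention no transfection, whereas the name of the peak list mentions a control siRNA, so whether both libraries came from transfected cells is not settled. A single library of each kind allows no test between samples, and all intervals cover counting error only.

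Band q12 is known as a large block of satellite repeats, and hg38 holds most of it as unknown bases. Next to it, q21.1 is known for segmental duplications, long stretches of sequence present in several near-identical copies. Reads from repeats and duplications can match several places equally well, and the sources used here do not give how such reads were placed. Each peak has 3 values at its summit. The fold is the immunoprecipitated pileup plus 1 over the local input background plus 1, the −log10 q is the peak caller's significance, and the pileup in reads was recovered from the fold and the p-value. The background was recovered with the pileup, as the mean of the Poisson model, and is not a count of input reads. A peak is called strong here when its −log10 q is 5 or more.

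The peaks did not spread along the arm. Of the 230, 113 lay in a single cluster at its inner edge, where each summit followed the last by less than 10 kb. This cluster ran from 143199838 to 143275946 on chromosome 1, a length of 76.1 kb in an arm of 106 Mb. The other 117 peaks were scattered over the rest of the arm at 1.11 per Mb. Strong peaks were more unequal still: 112 lay in the cluster and 18 outside it. In all, 130 of 230 peaks (56.5%, exact binomial 95% interval 49.8% to 63.0%) were strong, against 30% of all peaks in the list and 8.8% of the 3148 peaks on the other 42 arms. Arms were counted without the 2 Mb beside their centromere bands. On 1q those 2 Mb fall inside q12, so no part of q21.1 was cut and the cluster was kept. Outside the cluster the strong share of the arm was 15.4% (9.38% to 23.2%). In the centromere bands of chromosome 1 it was 51.4% of 1986 peaks, near that of the whole arm. Fold told less of a difference: 33 peaks of the arm (14.3%) had a fold of 5 or more, against 9.28% on the other arms and 25.2% of all peaks. A q under 0.05 was reached by 185 (80.4%), near the 79.3% of all peaks and above the 52.8% of the other arms.

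**Figure D1:**
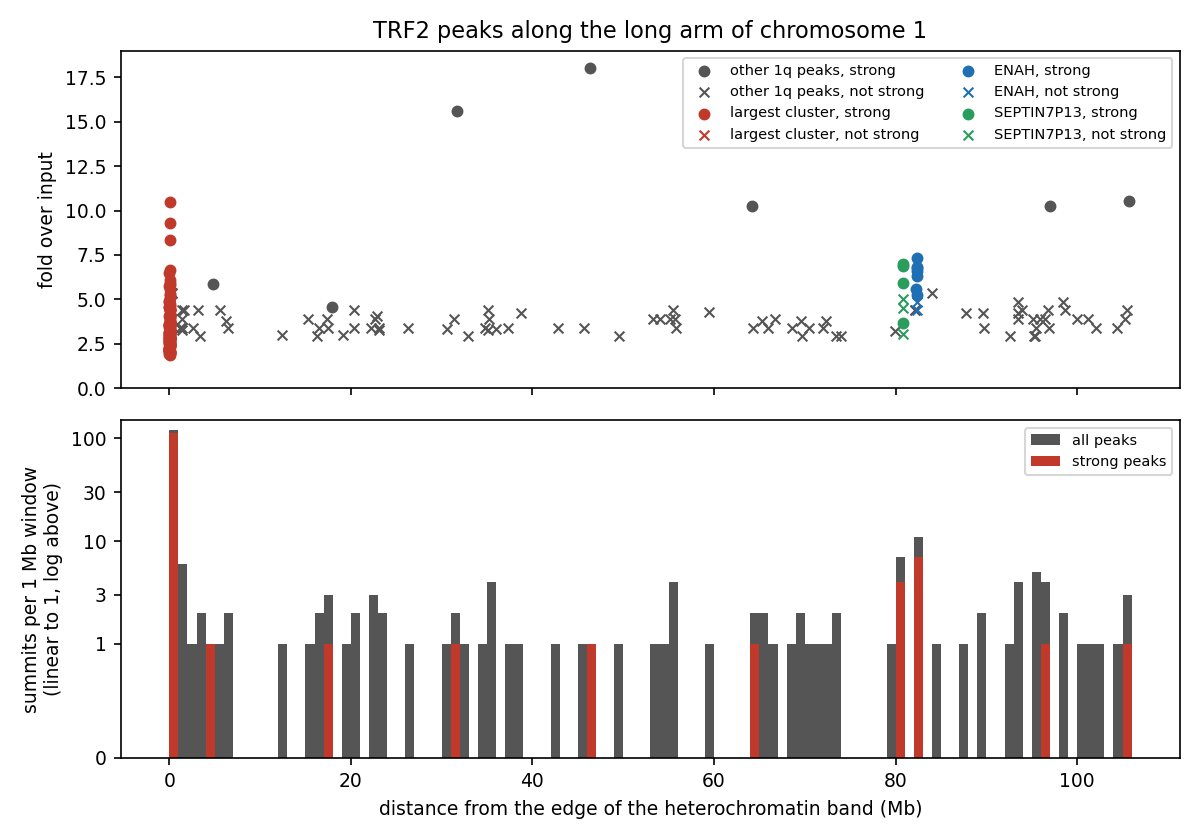
Fold over input of each 1q peak (upper panel, circles strong, crosses not strong) and summits per 1 Mb window (lower panel, strong peaks drawn over all peaks, scale linear up to 1 and logarithmic above), against distance in Mb from the edge of band q12. The first window holds 120 summits, 112 of them strong, and 50 of the 106 windows hold none.

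In windows of 1 Mb counted from the edge of q12, the first held 120 summits. The next fullest held 11 (225200001 to 226200000, over ENAH), 7 (223200001 to 224200000, over the pseudogene SEPTIN7P13), 6 (144200001 to 145200000) and 5 (238200001 to 239200000). Of the 106 windows, 50 held no summit and 32 held 1. By cytogenetic band, q21.1 held 129 peaks, 16 of them outside the cluster. The small bands q42.11 and q42.12 held 7 and 11 peaks, at 14.0 and 4.58 per Mb, and the larger q43 held 16 at 2.25 per Mb. Bands q21.3 and q24.3 held none.

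The highest fold of each band showed where fold was high. It was 10.5 in q21.1, inside the cluster, and 5.37 among the 16 peaks of that band outside it, none of which was strong. In q21.2, q22, q23.1, q23.2 and q23.3 it was 5.85, 2.97, 3.90, 3.41 and 4.56. In q24.1 and q24.2 it was 4.09 and 3.41, each a shallow peak. Band q25.1 reached 15.6 in RABGAP1L and q31.1 18.1, while q25.2, q25.3, q31.2 and q31.3 reached 4.39, 4.23, 2.93 and 4.39. Along q32.1, q32.2, q32.3 and q41 it was 4.29, 10.2, 3.76 and 3.76. In q42.11 and q42.12 it was 6.98 and 7.32, in SEPTIN7P13 and ENAH. Further out it was 5.37 in q42.13, 4.23 in q42.2 and 2.93 in q42.3, where LYST, a lysosomal trafficking gene, held the only peak, of 5 reads. Bands q43 and q44 reached 10.2 and 10.6. Folds of 10 or more stood in 6 of the arm's bands, and q43 and q44 adjoin.

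Each Mb of 1q held 2.17 peaks (95% interval by the exact Poisson method, 1.90 to 2.47). Each Mb of the other arms held 1.19 (1.14 to 1.23), so the ratio of densities was 1.83 (1.60 to 2.1). The other arms lack the 2 Mb beside their centromere bands, whereas 1q was counted from the edge of q12, so unlike parts are compared. Without the cluster 1q had 1.11 per Mb and the ratio was 0.934 (0.770 to 1.12). For strong peaks the ratio was 11.8 (9.49 to 14.6) over the whole arm and 1.63 (0.953 to 2.63) without the cluster. Leaving out ENAH and SEPTIN7P13 as well, it was 0.635 (0.253 to 1.33), from 7 strong peaks. For all peaks the ratio was then 0.806 (0.654 to 0.983). These loci were left out after their many peaks were seen. Neighbouring peaks are not independent, so these intervals are too narrow. Among the other arms 8q held 5.78 peaks per Mb, and the median of the other arms was 0.946. Of the 42 other arms, 13 were denser than 1q without the cluster. Counted as clusters of summits within 10 kb, 1q had 98 clusters, 89 of them a single peak, at 0.927 per Mb against 1.07 per Mb on the other arms. In that count 1q was the 18th densest of 43 arms, and counting every peak it was the 2nd. On the other arms the largest cluster had 20 summits. After the first, the largest on 1q had 7 summits each, in SEPTIN7P13 and ENAH, and 3 each, in ACTN2 and at 144619826 to 144625016, where 1 of the 3 lay inside the long noncoding RNA gene LINC01632.

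**Figure D2:**
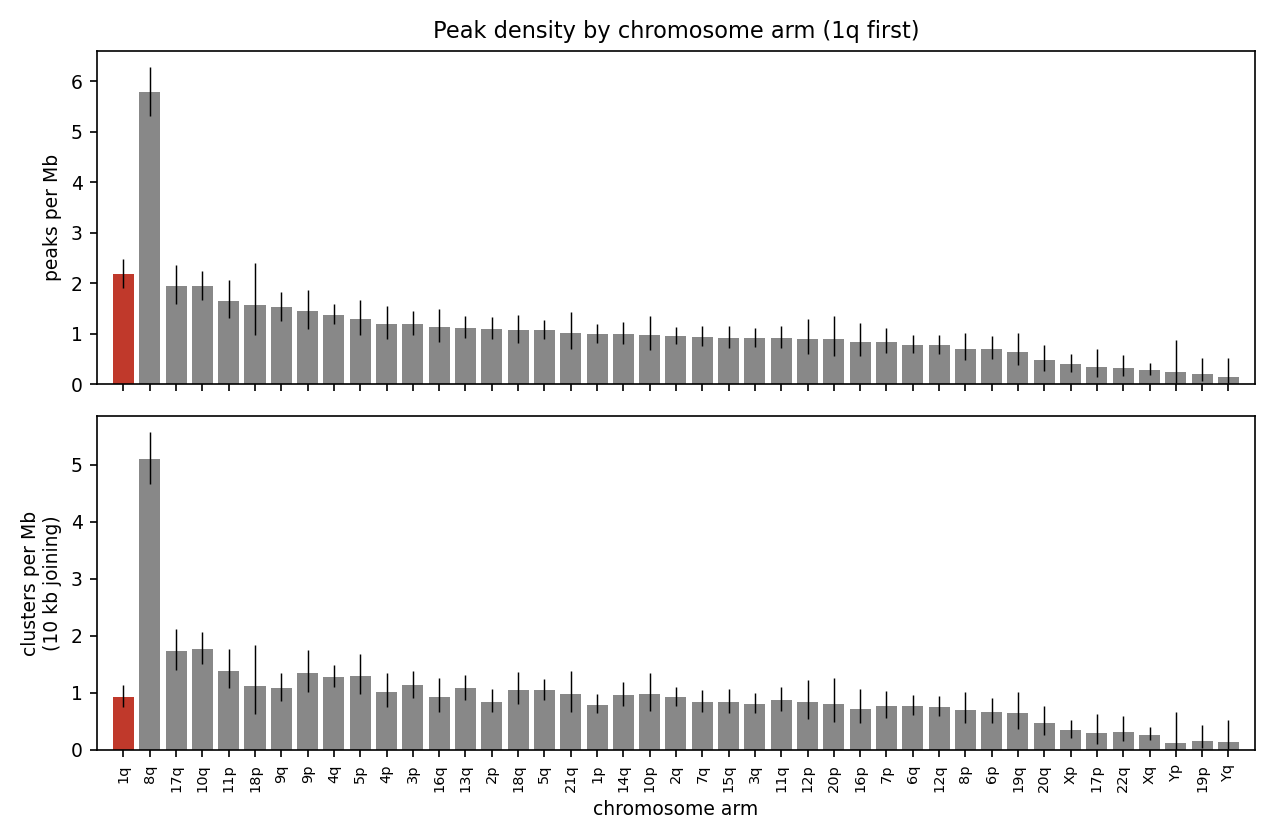
Peaks per Mb (upper panel) and clusters of summits joined within 10 kb per Mb (lower panel) for 43 chromosome arms, 1q in red; whiskers are exact Poisson 95% intervals. The bar of 1q is 2.17 in the upper panel and 0.927 in the lower one, where it sits among the other arms.

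The cluster is the deepest part of the arm and holds most of its strong peaks, but not its highest folds. It covers no annotated gene, and the nearest, the long noncoding RNA gene LOC101929814, begins 23.6 kb beyond it. Its summits were spaced by a median of 554 bp (169 to 2591 bp), and its peaks covered 56.4% of its length. They were broad beside peaks of the other arms, with a median width of 215 bp against 72 bp there. Over 1 kb were 7 peaks, the widest 3373 bp. The median width was 124 bp in the centromere bands of chromosome 1. The pileup had a median of 108 reads (22 to 138) in the immunoprecipitate, against a median input background of 29.9 (3.58 to 71.6). On the other arms those medians were 7 reads and 1.05, and 78.9% of peaks there, and 29.5% of all peaks, had a background at its genome-wide floor of 1.05. On 1q 83 peaks (36.1%) did, none of them in the cluster, so the input background was raised throughout it. In the centromere bands of chromosome 1 the medians were 27 reads and 6.20, between the cluster and the arms.

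Depth and fold ran opposite ways inside the cluster. Its median fold was 3.16, below the 3.90 of the other 117 peaks of the arm. At 64 summits the pileup was 100 reads or more, and there the median fold was 2.79, against 3.60 at the 49 summits with less. At 10 summits it stood at 138 reads, the highest value anywhere in the list. That is 2 times the narrowest peak width of 69 bp, the most that fragments of 69 bp can pile up where 1 read is kept per position and strand. The handling of duplicate reads is not stated in the sources used here. The part of such a ceiling, in either library, in the folds of the cluster was not tested. Across the 113 summits the Spearman correlation was −0.83 between fold and input background and 0.85 between pileup and input background. This is a description over peaks of 1 library pair that share their depth, and fold is itself computed from both other values.

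The outer part of the cluster differed from the inner ones when its length was cut into 4 equal stretches. The 27 summits of the last stretch, 57.8 to 75.9 kb from its start, had a median input background of 18.9 and a median fold of 3.62. In the first 3 stretches the median background was 32.4, 38.4 and 38.9 and the median fold 2.87, 3.08 and 2.88. The 3 highest folds of the cluster all fell in this last stretch. They were 10.5 at 143274756 to 143274944 (47 reads), 9.30 at 143270652 to 143270787 (108 reads) and 8.33 at 143271149 to 143271250 (82 reads). Beyond 143275946 the peaks stopped: the next summit lay 13.4 kb further out, with 6 reads.

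**Figure D3:**
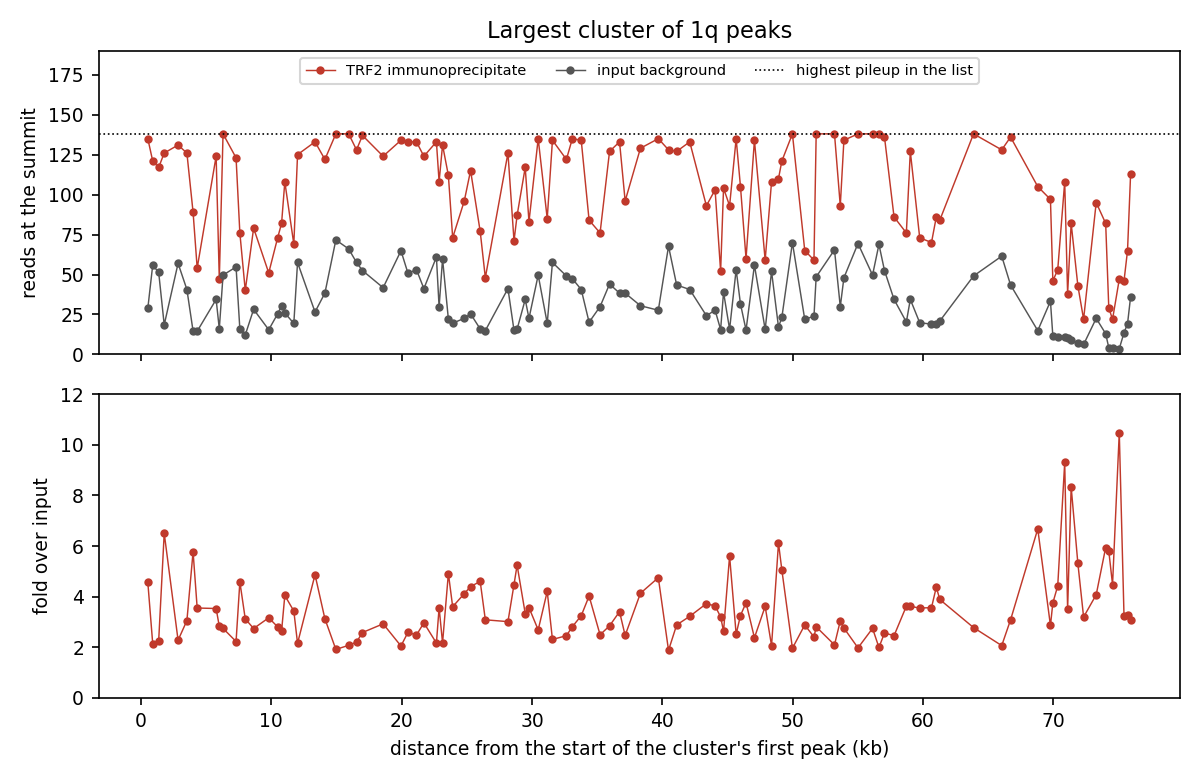
Pileup in reads in the immunoprecipitate (red) and input background (grey) at each of the 113 summits of the cluster, with the fold in the lower panel. The background is the recovered Poisson mean, not a count of input reads. Both panels run against distance in kb from the start of the cluster's first peak. Red points touch 138 reads, the highest in the list, at 10 summits, and the folds of 10.5, 9.30 and 8.33 stand near the outer end.

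On its inner side the cluster did not end at the band edge that defines the arm. Another 23 summits on the q12 side, from 143184629, continued it, and all 23 were strong. They had a median pileup of 123 reads over a background of 39.5, a median fold of 2.80 and a median width of 270 bp. Together the 136 peaks made a run of 91.3 kb. Before it came 18.0 Mb with no summit, nearly the whole length of q12 (18.1 Mb), most of it unknown bases in the assembly. The last summit left out by the band edge, at 143199644, had a fold of 3.23 and 75 reads, and the first one kept, at 143200364, had 4.57 and 135 reads. So the count of 113 depends on where the edge is drawn across a continuous run.

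**Figure D4:**
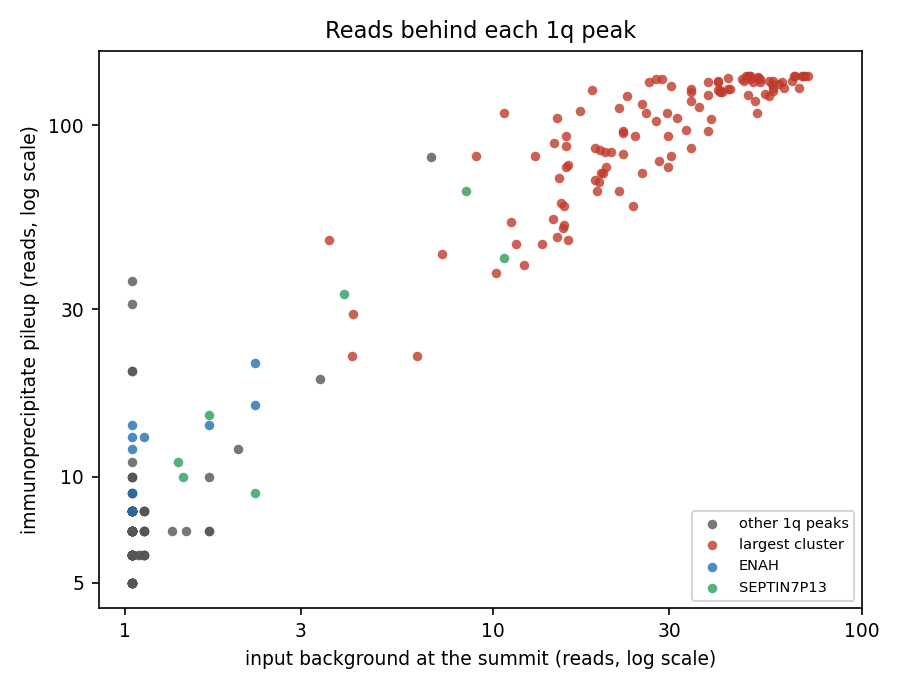
Immunoprecipitate pileup in reads against input background at each of the 230 summits, both axes logarithmic. The background axis shows the recovered Poisson mean, not a count of input reads. The cluster is in red, ENAH in blue, SEPTIN7P13 in green and the others in grey. The cluster spans 22 to 138 reads over backgrounds of 3.58 to 71.6, and grey points pile up at the background floor of 1.05.

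Outside the cluster, 16 of the other 117 peaks fell in 2 genes of band q42, SEPTIN7P13 and ENAH. They held 11 of the 18 strong peaks. ENAH encodes an Ena/VASP family protein that promotes the growth of actin filaments, and SEPTIN7P13 is a transcribed pseudogene of SEPTIN7, which encodes a filament-forming GTPase.

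ENAH (minus strand, chromosome 1, 225486829 to 225653878) carried 9 summits, 7 of them strong. All 9 lay well inside the gene, 14.2 to 80.5 kb from the end nearer the centromere, which is its 3′ end, and none within 3 kb of either end. Folds ran from 4.39 to 7.32 and pileups from 8 to 21 reads. The highest fold, 7.32 with 14 reads, was at 225567235 to 225567420, and the deepest peak, with 21 reads and a fold of 6.76, at 225519234 to 225519557. Background was at its floor at 5 of 9. The pseudogene of ENAH on chromosome 3, ENAHP1, held 2 summits, neither strong, with a fold of up to 4.88.

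SEPTIN7P13 (chromosome 1, 223992730 to 224033859) carried 7 summits within 4.83 kb, in the middle of its 41.1 kb. They differed among themselves more than the ENAH peaks, with folds of 3.07 to 6.98 and pileups of 9 to 65 reads. The deepest, at 224013592 to 224013907, had 65 reads over a background of 8.46. At 224012009 to 224012184 there were 33 reads over 3.95, and at 224014812 to 224014924 there were 42 reads over 10.7, a fold of 3.67. No summit had a background at the floor, so the input was raised here too. SEPTIN7 itself and the 14 other pseudogenes of this name had no summit inside or within 3 kb, although near-identical copies can share reads. These copies were looked up after the peaks were seen.

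**Figure D5:**
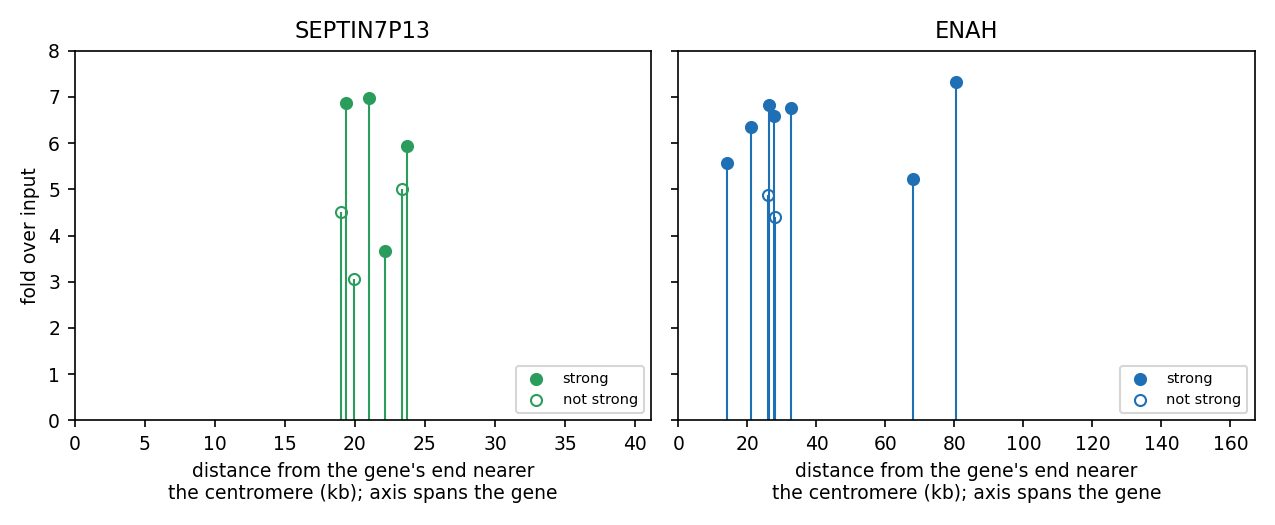
Fold over input of each peak in SEPTIN7P13 and ENAH, against distance in kb from the gene end nearer the centromere; each axis spans the whole gene, and filled points are strong. The 7 SEPTIN7P13 summits stand within 4.83 kb, and the 9 ENAH summits between 14.2 and 80.5 kb.

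The remaining 7 strong peaks each stood alone, and among them were the 3 highest folds of the arm. A peak at 189586101 to 189586187 in q31.1, inside the long noncoding RNA gene LOC105371657, had the highest fold, 18.1, with 36 reads. One at 174933075 to 174933163 in q25.1, inside RABGAP1L, which encodes a Rab GTPase-activating protein, had a fold of 15.6 with 31 reads. Both were under 90 bp wide and stood on the background floor of 1.05. The same held for a peak at 207407371 to 207407457, inside the long noncoding RNA gene LOC124904498 in q32.2, with a fold of 10.2 and 20 reads. A peak at 240184929 to 240185165 in FMN2, which encodes a formin that nucleates actin filaments, also had 10.2 and 20 reads but was 237 bp wide. These 4 peaks differ from the cluster in standing on the background floor, where no peak of the cluster stood.

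The outermost peak of the arm was of another kind. It spanned 248945453 to 248946436, with its summit 10422 bp from the last coordinate of the chromosome, and no gene lay over it. How much of that distance is known sequence in the assembly was not examined, so the distance to the last mappable base is not given. It had 81 reads over a background of 6.77, a fold of 10.6, and a width of 984 bp, the widest outside the cluster. The last 2 strong peaks were weak ones. That in GPR89B, which encodes a regulator of Golgi pH, had a fold of 5.85 with 11 reads (147970494 to 147970575), and its near-identical copy GPR89A had no summit. That at 161097659 to 161097730 had a fold of 4.56 with 19 reads over a raised background of 3.38.

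The rest of the arm was shallow. Leaving out the cluster, ENAH and SEPTIN7P13, 101 peaks remained, of which 87 had 5 to 8 reads and 78 had a background at the floor. Their median fold was 3.90 (quartiles 3.41 and 4.39), against 3.76 (3.41 and 4.23) on the other arms. Their median pileup was 7 reads, as on the other arms. Of the 101, 57 (56.4%, exact interval 46.2% to 66.3%) had a q under 0.05, against the 52.8% of the other arms. A difference from the other arms in these values was not detectable at this depth.

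Among these peaks some stretches of the arm stood empty. The longest, 6.01 Mb between summits at 149622215 and 155629486, held 203 protein-coding genes. In it lay all 38 genes of the epidermal differentiation complex, which build the outer layer of the skin, and all 20 S100 genes and pseudogenes of the arm, a family of calcium-binding proteins. The next, 5.93 Mb between 217180577 and 223110245, held 24 protein-coding genes. Further stretches of 4.77, 4.34 and 4.11 Mb held 77, 34 and 27 of them. The longest empty stretches thus ranged from gene-dense to gene-poor.

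Peaks beyond q21.1 lay mostly inside genes. Of the 101 peaks there, not the same 101 as above, 76 (75.2%, exact interval 65.7% to 83.3%) had their summit in an annotated gene. The share was 52.7% (51.0% to 54.5%) on the other arms. Genes cover 62.3% of that part of 1q and 58.7% of the other arms. Without ENAH and SEPTIN7P13 the share was 70.6% of 85 peaks (59.7% to 80.0%). With the 16 peaks of q21.1 outside the cluster counted too, it was 65.3% (55.2% to 74.5%), near the gene coverage. Among those 16 alone it was 37.5%. Over all 230 peaks it was 35.7%, because the cluster covers no gene. Within 3 kb of either end of a gene lay 19 of the 230 summits (8.26%, exact interval 5.05% to 12.6%), against 12% on the other arms, and without the cluster this was 16.2% (10.1% to 24.2%).

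Few peaks came near a gene's start. None overlapped any of the 1689 promoter windows of the arm, from 250 bases before to 50 after an annotated start. An approximate one-sided 95% limit, 3 over 1689, allows a share of up to 0.178%. Peaks of the other arms met 4 of 32314 such windows, which did not include chromosome 8. Within 1 kb of a start lay 2 summits (0.870%) and within 3 kb 8, against 0.858% and 3.04% of peaks on the other arms with starts in the table. All of these 1q summits lay outside the cluster. Among the 117 peaks there, the share within 1 kb was 1.71%, above that of the other arms but from 2 summits. The strong peak at 161097659 to 161097730 was 677 bp upstream of KLHDC9, which encodes a kelch-domain protein, and within 3 kb of the end of PFDN2, which encodes a prefoldin subunit. The other was 717 bp downstream of the start of PTPRC (fold 4.39, 8 reads), which encodes the leukocyte phosphatase CD45. The next closest, upstream of RXRG (−1645 bp), which encodes a retinoid X receptor, had a fold of 3.41 with 6 reads.

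Of the 973 protein-coding genes of the arm, 45 (4.62%) had a summit inside or within 3 kb, 7 of them near an end. Those 45 were long, with a median length of 131 kb against 20.0 kb for all 973, and a longer gene offers more room for a summit. In 6 genes the best peak was strong: RABGAP1L, FMN2, ENAH, GPR89B, and KLHDC9 with PFDN2, which share a peak. Next came CDC42BPA, which encodes a kinase acting on the cytoskeleton downstream of CDC42, with a fold of 5.37 and 10 reads. ACTN2, which encodes the alpha-actinin of muscle sarcomeres, carried 3 summits within 1.32 kb with folds of 4.88, 4.23 and 3.90. RASAL2, which encodes a Ras GTPase-activating protein, carried 3 of 3.29 to 4.39. None of these was strong.

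The other named genes had 1 or 2 shallow summits each. WDR64 had a fold of 4.88 (9 reads), the axonemal dynein gene DNAH14 4.39 at both of its summits, and RYR2, the calcium release channel of heart muscle, 4.39 (8 reads). SYT2, a calcium sensor of synaptic vesicles, had 4.29 (12 reads) and TTC13 4.23 (8 reads). Folds of 3.90 with 7 reads were found in the immune receptor gene CD84, the potassium channel gene KCNT2 and the cell polarity gene CRB1. The same values were found in the kinase gene NEK7, the muscarinic receptor gene CHRM3, the centrosome gene CEP170 and the purine synthesis gene ADSS2. TATDN3 and NOTCH2NLC, one of the copies of NOTCH2 in q21, had 3.76, and CD48 had 3.41. Many peaks share a fold because whole reads over the same background floor allow few values: 6, 7 and 8 reads give 3.41, 3.90 and 4.39.

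Gene groups that lie in clusters or repeats were set beside all genes of the arm. Among all 2702 genes of the arm, 79 (2.92%) had a summit inside or within 3 kb. Gene length was not matched, and a shorter gene offers less room for a summit, so counts below that share do not show depletion. The segmental duplication genes around q21.1, present in near-identical copies, had 2 of 23, NOTCH2NLC (fold 3.76) and HYDIN2 (2.93), while FAM72C and SRGAP2D had none. The 5S ribosomal RNA genes and pseudogenes had 1 of 47, the pseudogene RNA5SP536, on the same peak as HYDIN2, and RNA5SP533 and RNA5SP529 had none. No summit was found for 31 U1 small nuclear RNA genes and pseudogenes (RNU1-114P, RNVU1-17) or 83 transfer RNA genes (TRQ-CTG11-1, TRE-TTC7-1). The same held for 90 olfactory receptor genes (OR13Z1P, OR13Z2P), 20 replication-dependent histone genes (H3-7, H2BC18) and 72 miRNA genes (MIR6736, MIR5087).

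Among immune gene clusters of the arm, the SLAM family of lymphocyte receptors had 2 of 10, CD84 and CD48, and SLAMF8 and SLAMF9 had none. The CD1 antigen presentation genes had 0 of 5 (CD1D, CD1A) and the Fc receptor genes 0 of 19 (FCGR1CP, FCGR1A). No listed member of these groups had a strong peak; GPR89B and its copy GPR89A were not on the list of duplicated genes. The arm holds no annotated TERF1 or POT1 pseudogene.

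The series title names miR-181a-5p, and 1 of its precursor loci lies on this arm. Its mature sequence and that of its neighbour are shown because they identify the title's miRNA on this arm, with the seed (bases 2 to 8) in capitals; both are on the minus strand, from RefSeq (GRCh38.p14).
hsa-miR-181a-5p (MIR181A1, chr1:198859108-198859130): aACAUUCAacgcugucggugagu
hsa-miR-181b-5p (MIR181B1, chr1:198858925-198858947): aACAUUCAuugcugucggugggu
Both share the seed ACAUUCA. The only peak in their host transcript MIR181A1HG lay at 198897981 to 198898049, 38.9 kb from MIR181A1, with a fold of 3.90, 7 reads and a −log10 q of 1.53. It was a shallow peak like the other scattered ones. S100A10, the other gene of the title, lay in the longest empty stretch.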

How the data were processed

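Peaks of 1 TRF2 immunoprecipitate over 1 input from HCT116 cells were taken from the authors' list. Per the submitters' processing notes, MACS2 2.1.0, Bowtie2 2.3.2, ChIPseeker 1.36.0 and HOMER were used with hg38 (GRCh38). The sources used here give neither their settings nor the handling of duplicate reads. The deposited fold is a ratio of pileup to local input background. The deposited −log10 q-value and −log10 p-value refer to the summit, and 10 times the second, cut to a whole number, is the deposited score. The deposited summit offset, in bp, gave positions. All of these are the authors' values, used to rank, describe or filter peaks of the list. No −log10 p was under 3.01.

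Pileup and background were recovered from fold and p as (pileup + 1)/(background + 1) and the upper Poisson tail. Whole pileups matched in 100% of peaks (tolerance 0.001). The recovery was also tested on simulated data. The sources used here give no library totals, and the precision of each value is that of its pileup.

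Arms leave out centromere, heterochromatin and stalk bands and 2 Mb around centromeres (hg38 bands of circlize 0.4.16, R 4.3.3). On 1q those 2 Mb lie inside q12, so the arm begins at the edge of q12. Genes, starts and strands came from RefSeq (GRCh38.p14). Left out were 718 gene rows whose start lay below that of an earlier row of the same chromosome. No genome sequence was used, so repeats and motifs were not analysed here. Intervals are exact (Poisson, Clopper-Pearson; 95%). Computation used pandas 2.3.3, scipy 1.17.1, numpy 2.4.6 and, for plots, matplotlib 3.10.9 under Python 3.11.15. Coordinates are 1-based.

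Members and gene lists were chosen with earlier results of these data known. Named were the 10 highest folds, the highest fold of each band, the fullest clusters and windows, and the peak nearest the arm's end. Also named were 25 protein-coding genes by fold (1 per peak) and genes with 3 or more summits. From each list came up to 4 members with and 2 without a summit. The result of 1 gene list is not reported here. Other settings tried were stricter limits on q and fold, a pileup of 10 reads or more, other joining distances and gene windows, and parts of the arm or other arms left out.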

Additional observations from a re-analysis of the deposited data

How the results depend on the processing

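No paired analysis was possible because there was 1 library of each kind and no test. Stricter limits leave fewer peaks by construction. With a q under 0.05, a −log10 q of 5 or more, and a fold of 5 or more, in that order, the density of 1q was 1.75, 1.23 and 0.312 per Mb, and its ratio to the other arms 2.79, 11.8 and 2.84. In the same order, the density beyond q21.1 was 0.611, 0.177 and 0.177 per Mb, the share in q21.1 66.5%, 86.2% and 45.5%, the clusters 58, 12 and 17, and the share inside a gene 27.0%, 12.3% and 54.5%. The share near a gene end was 1.54% at a −log10 q of 5 or more. The share of strong peaks was 70.3% at a q under 0.05, 87.9% at a fold of 5 or more and 94.2% at 10 reads or more, where the other arms had 71.0%. The median fold was 3.90 at a q under 0.05 and 6.34 at a fold of 5 or more. The ratio for strong peaks was 2.84 with a fold of 5 or more as the limit. With the −log10 q limit raised to 10, that ratio was 17 and q21.1 held 91.9% of the peaks.

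Leaving out parts near the heterochromatin brought the density ratio below 1, with intervals that include 1. It was 1.83 over the whole arm, 0.840 (0.682 to 1.02) without q21.1, 0.854 (0.691 to 1.05) without the first 10 Mb, 0.864 (0.699 to 1.06) with clusters counted once, and 0.934 (0.770 to 1.12) without the largest cluster, an alternative chosen after seeing the data. Without ENAH and SEPTIN7P13 as well it was 0.806 (0.654 to 0.983), an interval below 1, again chosen after seeing the data. That part of 1q held 0.956 peaks per Mb, and the median of the other arms was 0.946. The ratios for parts of 1q keep 8q, with 5.78 peaks per Mb, among the other arms, and were not computed without it. For the whole arm against other arms without 8q the density ratio was 2.15, and 2.28 without the gained parts of 10q and 17q as well. For strong peaks it was 1.70 without q21.1, 1.70 without 10 Mb, 1.34 with clusters counted once, 1.63 without the cluster, and 0.635 (0.253 to 1.33) without ENAH and SEPTIN7P13 as well, also chosen after seeing the data. With clusters counted once the density was 0.927 per Mb and q21.1 held 12.2%. Without the cluster the density was 1.11 per Mb, the strong share 15.4% and the median fold 3.90. The share near a gene end was 12.9% without q21.1, 13.4% without 10 Mb, 16.2% without the cluster, 2.61% within 1 kb and 22.2% within 10 kb. The share inside a gene was 75.2%, 74.2% and 70.1% in those 3 parts of the arm, and 23.5% for protein-coding genes only. What set the fold in the cluster was not tested. The other 9 values under other settings stayed within the main value's interval, or within 1.5 times for counts. Repeat motifs were not run, for want of a genome sequence. Depth limits the scattered peaks, most of 5 to 8 reads.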
